A study of Homo sapiens with 12 samples.

Results

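The set described here holds 10 genes that neurons switch on soon after they leave the cell cycle, out of the 25718 genes of the count files. They are STMN2, STMN4, TUBB3, INA, NEFL, NEFM, GAP43, SYT4, ELAVL3 and SCG2, and they were picked by name. Where a gene had several RefSeq transcripts, the transcript with the highest mean count stood for it. The 12 samples were derived from H9, an established human embryonic stem cell line. The cells of every sample carried a lentiviral vector, transduced at a multiplicity of infection of 50, that makes GFP and either miR-10a or miR-10b under the control of doxycycline, and they were patterned towards midbrain with Shh (sonic hedgehog) at 200 ng/ml and what the labels call CT0.8, and collected on day 14 of neural induction. In the miR-10a doxycycline and miR-10b doxycycline groups (n = 3 each), doxycycline was given from day 11 for 3 days. The miR-10a control and miR-10b control groups (n = 3 each) were the same transduced cells without doxycycline. An effect of doxycycline or of GFP cannot be told apart from an effect of the miRNA in these samples. Nothing in the labels says that replicates were separate cultures, so the p-values measure the spread between these samples, which may be technical.

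A newborn neuron builds a process, and for this it makes tubulins, microtubule regulators of the stathmin family and the neurofilament subunits that fill the axon. It also starts to make the proteins of secretory granules and vesicles, and RNA-binding proteins of the ELAV family that stabilize neuronal transcripts. In progenitors many of these genes are held silent by the repressor REST, and proneural factors activate them at cell cycle exit. miR-10a and miR-10b share their seed and lie within HOX gene clusters.

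The mature miR-10a strand is shown because its seed was searched for in the 3′UTRs of the 10 genes. Capitals mark the seed, bases 2 to 8 from the 5′ end. The sequence is from RefSeq and lies at chr17:48579904-48579926 on the minus strand of GRCh38.p14.
hsa-miR-10a-5p: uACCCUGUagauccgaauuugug
The search used ACAGGGTA, ACAGGGT and CAGGGTA, which pair with the seed. Of the 10 genes, only ELAVL3 held a match in the 3′UTR that was read (GENCODE on GRCh37), against 21.1% of the 9267 tested genes with a 3′UTR. It is the match ACAGGGT, in capitals, at chr19:11565189-11565195 on the minus strand of GRCh37, 149 bases into a 3′UTR of 3203 bases.
ELAVL3 site: ctgcggaagccACAGGGTgagcactctgg
The 3′UTR of SYT4, 2452 bases long, held none of these letters.

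Totals ran from 10545487 to 14165426 counts per sample, so that 3 counts stood for 0.212 to 0.284 CPM (the count of a gene per 1000000 of its sample's total). For both vectors the totals of the controls were all above those of the doxycycline samples. The miRNA precursor transcripts showed the induction. MIR10A was at 724 ± 10.8 CPM (SD, n = 3) with doxycycline and 0.999 ± 0.363 without it in the cells carrying its vector, and MIR10B was at 2619 ± 67.5 and 3.55 ± 0.807 CPM in the cells carrying its own. Replicate 2 of the miR-10b doxycycline group stood apart: the chi-square of counts divided by its degrees of freedom was 2.80 and 3.57 against the other replicates of its group, and between 1.19 and 1.76 in all other pairs of replicates. Calls and counts that changed without this sample are also given without it. Progenitor genes were abundant in all groups, with NES, the progenitor intermediate filament nestin, at a mean of 4730 CPM and VIM, vimentin, at 4540 CPM, so these were mixed cultures. In bulk samples, fewer cells of a type and less RNA per cell cannot be told apart.

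How well each of the 10 genes was measured depended on how many transcripts it had in the annotation, since reads that fit more than 1 transcript of a gene seem not to have been counted. INA, NEFL, SYT4 and SCG2 have 1 transcript each and had mean counts of 6863, 10899, 12218 and 368. The other 6 have several. NEFM had a mean of 3924 counts on one transcript and 15.2 on the shorter one, and TUBB3 had 181 and 5.8. STMN2, which regulates microtubules in the growth cone, had between 7 and 16 counts per sample on one transcript and 0 on the other. GAP43, a membrane protein of the growth cone, had between 1 and 12 counts on one transcript and 0 on the other in every sample. ELAVL3, a neuronal RNA-binding protein, had between 0 and 3, and none of the 4 transcripts of STMN4, another stathmin, received a read in any sample. A low count for these genes does not mean low expression. GAP43, ELAVL3 and STMN4 stayed under the filter of a mean above 10 counts and were not tested, which left 7 genes among the 11451 tested. A difference in ELAVL3, the gene with the seed match, was not detectable at these counts.

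**Figure D1:**
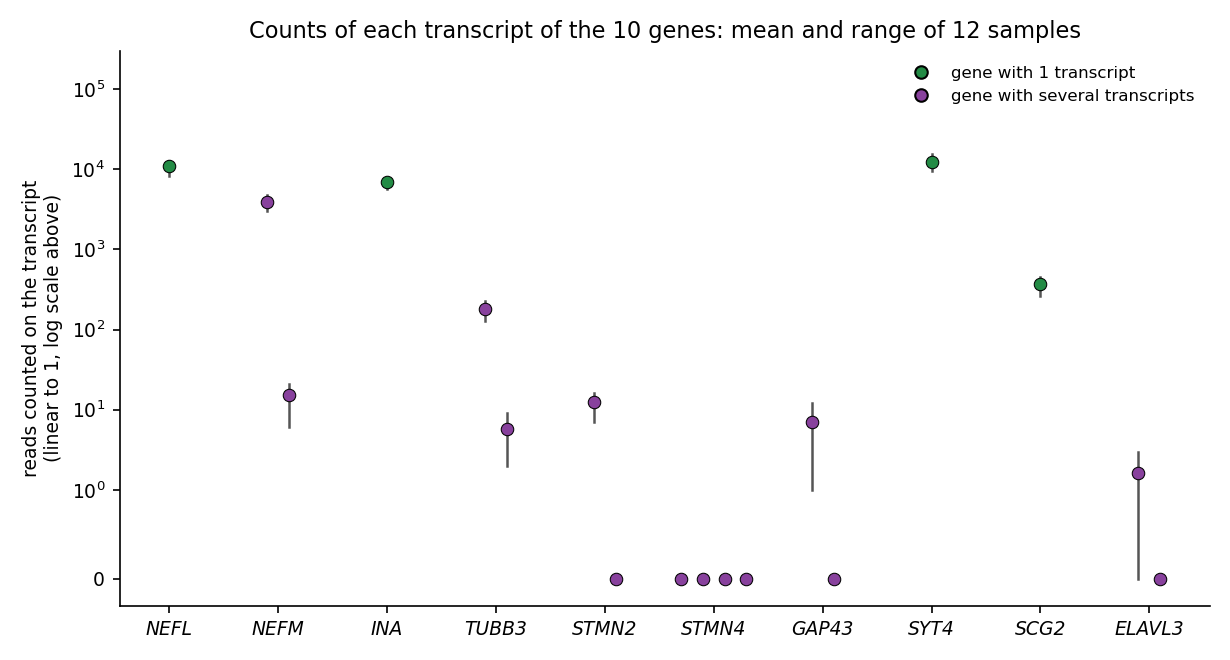
Reads counted on each RefSeq transcript of the 10 genes (vertical axis, linear up to 1 and logarithmic above it), with the mean as a dot and the range over 12 samples as a line, for genes with 1 transcript in green and with several in purple. SYT4, NEFL and INA lie at mean counts of 12218, 10899 and 6863, whereas all 4 transcripts of STMN4 lie at 0.

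Per kilobase of transcript, the genes with 1 transcript can be set beside each other. In the miR-10a control group, SYT4 had 246 ± 7.18 CPM per kb (SD, n = 3), NEFL 209 ± 1.27, INA 166 ± 1.27 and SCG2 10.3 ± 1.03. SYT4 was above NEFL in 3 of the 4 groups, with 219 ± 1.85 against 205 ± 5.65 in miR-10a doxycycline and 273 ± 8.27 against 240 ± 9.56 CPM per kb in miR-10b control. In the miR-10b doxycycline group the order was the other way round, with NEFL at 267 ± 1.95 and SYT4 at 225 ± 13.5 CPM per kb. INA stood below both in every group and SCG2 was the lowest throughout.

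The comparison of doxycycline with control asked which of these genes changed when each miRNA was induced. With miR-10a, only SYT4 of the 7 tested genes passed the test, and it fell. With miR-10b, the 3 neurofilament-type genes of the set, NEFM, NEFL and INA, rose by between 6.6% and 23.4%, and SYT4 fell by 17.5%. All of these changes were under 1.3-fold.

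The neurofilament genes are described first. NEFL and NEFM encode the light and medium subunits of the neurofilament, and INA encodes α-internexin, the subunit that appears before them in young neurons. NEFL (chr8:24808468-24814235, minus strand, GRCh37) and NEFM (chr8:24771271-24776611, plus strand) are neighbours, 31.9 kb apart, and INA lies at chr10:105036895-105050103 on the plus strand.

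NEFM was at 282, 296 and 277 CPM in the 3 samples of the miR-10a control group and at 285, 296 and 288 CPM with doxycycline. In the cells with the miR-10b vector it was at 322, 323 and 298 CPM without and at 386, 407 and 371 CPM with doxycycline. With miR-10a the groups overlapped, whereas with miR-10b all 3 doxycycline samples were higher than all 3 controls. The log2 fold change with miR-10b was 0.30 ± 0.037 (SE, adjusted p = 1.5e-07, quasi-likelihood F-test in edgeR, adjusted by the Benjamini-Hochberg method across all tested genes). With miR-10a it was 0.024 ± 0.038 (edgeR adjusted p = 0.882), with a 95% interval from -0.053 to 0.102 on the log2 scale.

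NEFL was at 801, 806 and 797 CPM in the miR-10a control group and at 784, 813 and 771 CPM with doxycycline. Its levels with the miR-10b vector were 939.8, 946 and 879.8 CPM without doxycycline and 1019, 1030.2 and 1033 CPM with it. Again the groups overlapped with miR-10a and were separate, all higher, with miR-10b. The log2 fold change was 0.16 ± 0.030 with miR-10b (SE, edgeR adjusted p = 0.00031) and -0.022 ± 0.031 with miR-10a (edgeR adjusted p = 0.863, 95% interval -0.085 to 0.041).

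INA was at 535, 533 and 541 CPM in miR-10a control samples and at 557, 558 and 538 CPM in the miR-10a doxycycline samples. With the miR-10b vector it was at 564, 561 and 537 CPM in the controls and at 595, 601 and 575 CPM with doxycycline. The miR-10b groups did not overlap, though the gap was small. The log2 fold change was 0.092 ± 0.031 with miR-10b (SE, edgeR adjusted p = 0.037) and 0.037 ± 0.031 with miR-10a (edgeR adjusted p = 0.724). The miR-10b call for INA was lost with TMM scaling (adjusted p = 0.096), with DESeq2 (adjusted p = 0.107) and without replicate 2 of the miR-10b doxycycline group (edgeR adjusted p = 0.076), so it is the weakest of the calls.

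TUBB3, the neuronal β-tubulin, and STMN2 belong to the microtubule part of the set. TUBB3 was at 13.5, 16.0 and 14.0 CPM in the miR-10a control group and at 13.9, 16.6 and 11.9 CPM in the miR-10a doxycycline group. In cells with the miR-10b vector it was at 12.9, 15.2 and 13.6 CPM without and at 16.4, 16.4 and 15.6 CPM with doxycycline. All miR-10b doxycycline samples were therefore above their controls, but the difference did not pass the test (log2 fold change 0.22 ± 0.10, SE, edgeR adjusted p = 0.159, 95% interval 0.009 to 0.421, unadjusted). These values rest on few reads, counted on 1 of the TUBB3 transcripts. STMN2 ranged from 0.565 to 1.45 CPM over the 12 samples with all groups overlapping, and its intervals were wide, from -0.381 to 1.05 on the log2 scale with miR-10b. For GAP43 the CPM ran from 0.083 to 0.889, with overlapping groups in both vectors.

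SYT4 and SCG2 represent the secretory side. SYT4 encodes a synaptotagmin of vesicles and dense-core granules (chr18:40847857-40857500, minus strand, GRCh37), and SCG2 encodes secretogranin II, a granule protein that is cut into neuropeptides. SYT4 was at 1006, 981 and 1040.0 CPM in the miR-10a control group and at 891, 906 and 896 CPM with doxycycline. With the miR-10b vector it was at 1095, 1106 and 1158 CPM in the controls and at 939, 862 and 969 CPM with doxycycline. With either vector, the highest doxycycline sample lay below the lowest control. The log2 fold change was -0.17 ± 0.034 with miR-10a (SE, edgeR adjusted p = 0.0038) and -0.28 ± 0.034 with miR-10b (edgeR adjusted p = 1.6e-07). Without replicate 3 of the miR-10a control group, the highest of its group, the miR-10a value was -0.15 and no longer passed the test.

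SCG2, at a level far below that of SYT4, did not follow it. It was at 27.2, 28.7 and 23.6 CPM in the miR-10a control group and at 27.5, 30.4 and 24.9 CPM with doxycycline. With the miR-10b vector the values were 32.1, 33.3 and 31.7 CPM in controls and 33.4, 33.0 and 32.2 CPM with doxycycline. The groups overlapped in both vectors, and the log2 fold changes were 0.061 ± 0.077 with miR-10a (SE, edgeR adjusted p = 0.843) and 0.023 ± 0.072 with miR-10b (edgeR adjusted p = 0.887).

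**Figure D2:**
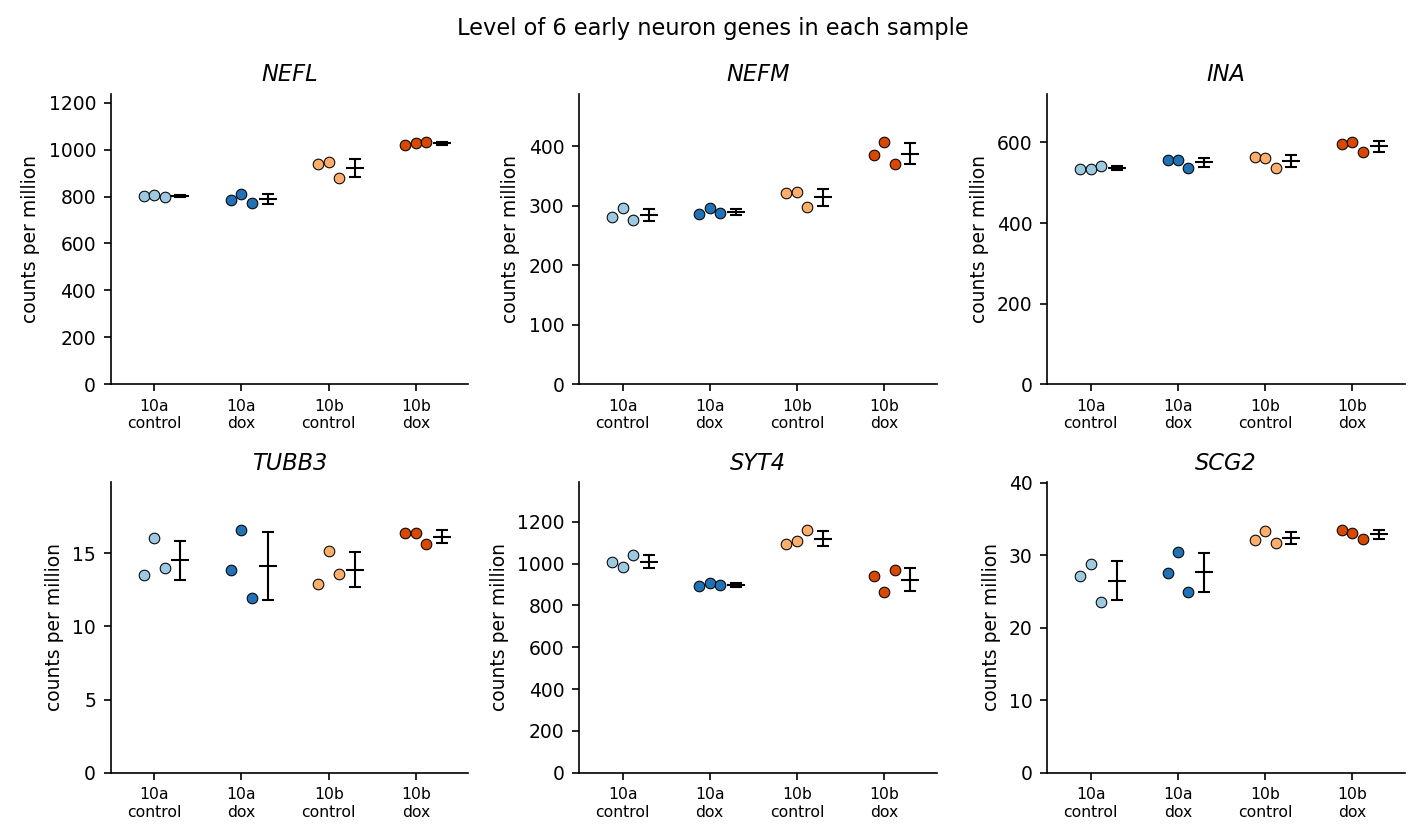
CPM of NEFL, NEFM, INA, TUBB3, SYT4 and SCG2 in each of the 12 samples (vertical axes from 0), where 10a and 10b are the vectors, dox is doxycycline and the black bars are the mean and SD of 3 samples. SYT4 is lower in all doxycycline samples of each vector than in its controls, and NEFL, NEFM and INA are higher in the miR-10b doxycycline samples than in their controls.

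In all, 1 of the 7 tested genes passed the threshold with miR-10a, where 1.21% of the 11451 tested genes did (0.742% lower). With miR-10b, 4 of 7 passed, 3 higher and 1 lower, where 15.3% of all tested genes did (8.18% higher and 7.15% lower). The 7 had a median log2 fold change of 0.024 for miR-10a, beside 0.010 over all tested genes, and of 0.156 for miR-10b, beside 0.021. Over the average of both vectors, which uses the same samples, the 4 genes NEFM, NEFL, INA and SYT4 passed with the signs of the miR-10b comparison, where 13.9% of tested genes passed, but with TMM scaling or DESeq2 only NEFM and SYT4 did. For miR-10b, groups without overlap were found in 5 of the 7 genes and in 28.7% of all tested genes, and for miR-10a in 1 of 7 and in 18.2%. Without replicate 2 of the miR-10b doxycycline group, NEFL, NEFM and SYT4 passed with miR-10b. The split of all genes called with miR-10b depended on the scaling, with 937 higher and 819 lower for total counts, 766 and 963 for TMM factors and 498 and 808 for DESeq2. NEFM and NEFL stayed higher and SYT4 lower under each of them.

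**Figure D3:**
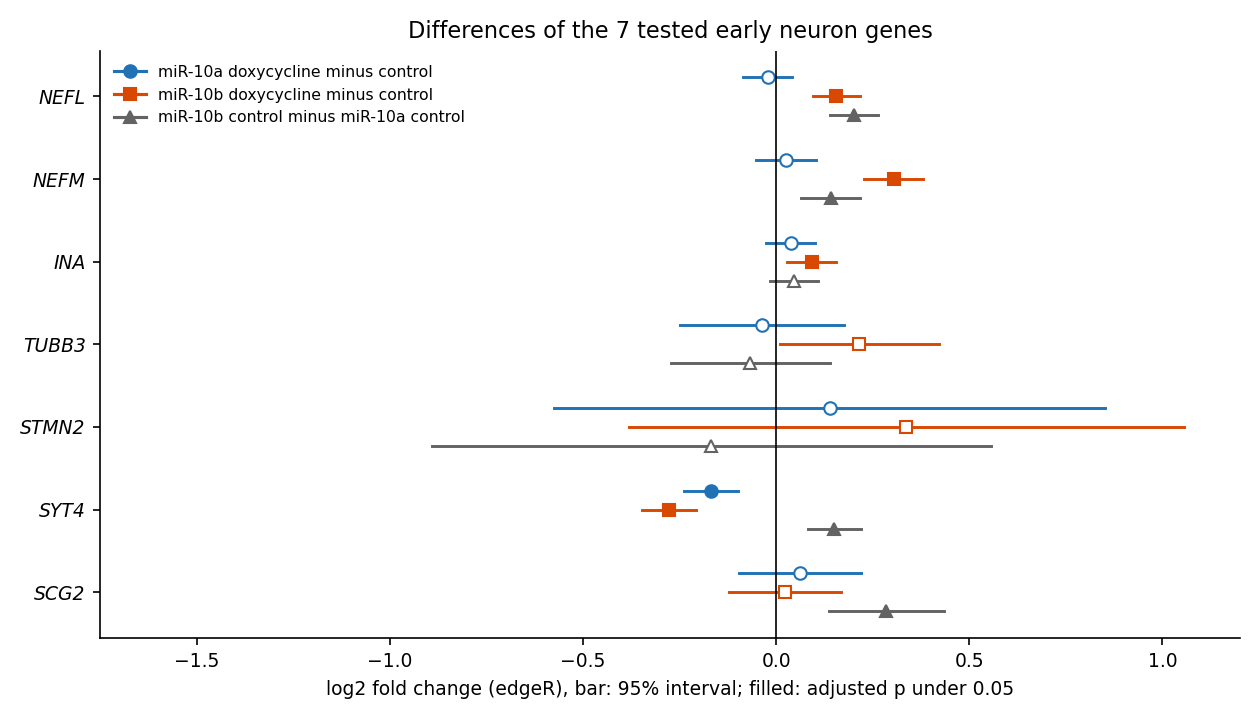
Log2 fold changes of the 7 tested genes (horizontal axis) with unadjusted 95% intervals as bars, for doxycycline against control with each vector and for the controls of both vectors against each other; filled symbols passed the test at an adjusted p under 0.05. SYT4 lies below 0 with both vectors (-0.17 and -0.28), and NEFM lies at 0.30 with miR-10b and at 0.024 with miR-10a.

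Whether a gene responded differently to the miRNAs was tested by the difference between the doxycycline effects. NEFM (0.28 ± 0.053, SE, edgeR adjusted p = 0.0016) and NEFL (0.18 ± 0.043, edgeR adjusted p = 0.019) rose more with miR-10b than with miR-10a, 2 of 7 genes where 1.96% of tested genes passed and 0.576% did so in this direction. For SYT4 the difference was -0.11 ± 0.048 with an edgeR adjusted p of 0.304 and a 95% interval from -0.207 to -0.011, and it was -0.062 without replicate 2 of the miR-10b doxycycline group. The INA difference, 0.055 ± 0.044, did not pass either (edgeR adjusted p = 0.642). The call for NEFL was lost in 5 of the 12 fits that leave out a sample, while that for NEFM was kept in all 12. The induced precursor was more abundant with miR-10b than with miR-10a, by the CPM given above, and the part of that difference in these results was not tested.

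The starting levels of the vectors also differed. Between the control groups, which hold no doxycycline, NEFL (0.20 ± 0.031, edgeR adjusted p = 4.5e-06), SYT4 (0.15 ± 0.034, edgeR adjusted p = 0.0015), NEFM (0.14 ± 0.038, edgeR adjusted p = 0.0073) and SCG2 (0.29 ± 0.073, edgeR adjusted p = 0.0055) were higher with the miR-10b vector. These were 4 of 7 genes, where 14.1% of tested genes passed and 7.41% were higher. For each of them all 3 miR-10b control samples were above all 3 miR-10a control samples, which 30.1% of tested genes also showed in one direction or the other. Without replicate 3 of the miR-10a control group, 2 of the 4 (NEFL and SYT4) still passed, and NEFM also did not pass without replicate 1 or 2 of the miR-10b control group. The vector and the culture in which it was carried cannot be told apart. Mesenchymal genes moved with this difference: 4 of 6 tested (COL1A1, COL3A1, TWIST1 and LUM, the last named after its values were seen) were higher in the miR-10b controls, and the summed level of the 7 listed was 378 to 398 CPM there and 170 CPM in the miR-10a controls. DCN, also named after its values were seen, has 6 transcripts and had between 0 and 1 counts per sample. The part of these cells in the difference was not tested.

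A ratio of counts taken within a sample does not depend on the library size. NEFM to SYT4 was 0.283 ± 0.018 (SD, n = 3) in the miR-10a control group and 0.281 ± 0.020 in the miR-10b control group. It was 0.323 ± 0.003 with miR-10a doxycycline and 0.422 ± 0.046 with miR-10b doxycycline. The controls of both vectors spanned 0.258 to 0.301, and each doxycycline group lay above that span, at 0.320 to 0.326 and at 0.383 to 0.473. NEFL to SYT4 was 0.794 ± 0.028 and 0.825 ± 0.056 in the controls and 0.879 ± 0.019 and 1.12 ± 0.070 with doxycycline, in the same order of vectors. NEFM to INA was 0.531 ± 0.022 and 0.526 ± 0.012 without and with doxycycline in miR-10a cells, and 0.567 ± 0.011 and 0.657 ± 0.018 in miR-10b cells. The last ratio shows unequal change among the neurofilament-type genes with miR-10b, without saying which of them changed.

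**Figure D4:**
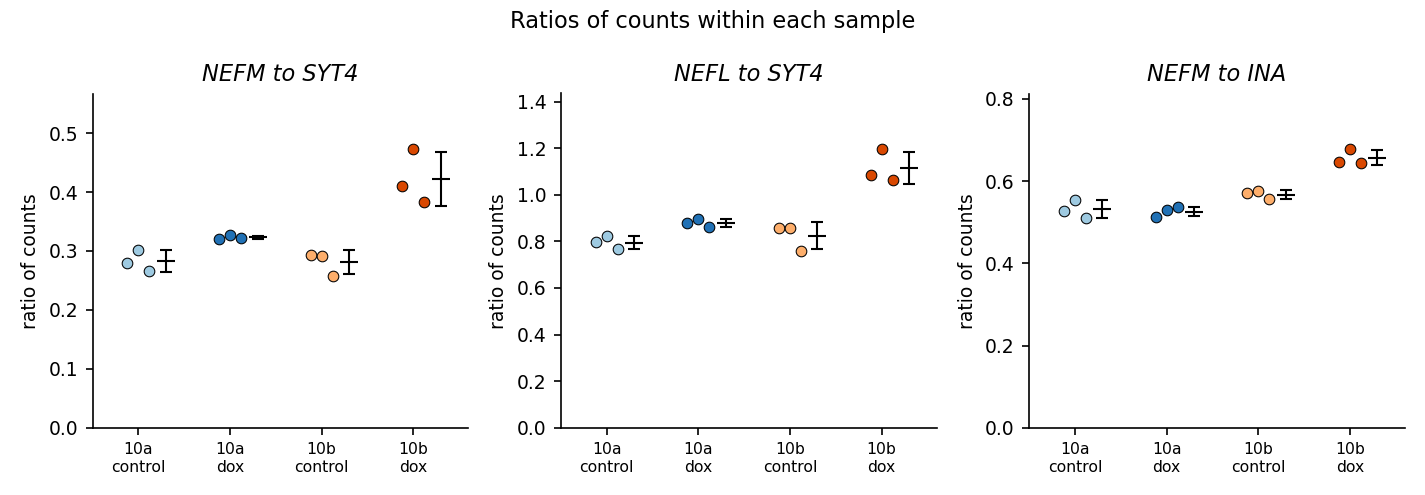
Ratio of counts within each of the 12 samples for 3 pairs of genes (vertical axes from 0), where 10a and 10b are the vectors, dox is doxycycline and the black bars are the mean and SD of 3 samples. NEFM to SYT4 is near 0.28 in both control groups and has means of 0.323 and 0.422 with doxycycline.

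Promoters were read for 4 of the 10 genes (SYT4, INA, TUBB3 and GAP43). Those of the other genes, NEFM and NEFL among them, were not examined. The promoters of SYT4 and INA are shown because these are the ones among the 4 that passed the test with miR-10b, in opposite directions, with the INA call lost under TMM scaling and DESeq2 as given above. The sequences are from RefSeq on GRCh38.p14 and run from 250 bases before to 50 after the start of the gene. Searched on both strands were CAGCACC and GGACAG, which stem from the left and right parts of the element that REST binds, the E-boxes CAGCTG and CAGATG that proneural factors bind, and TATAAA. Capitals mark the matches.
SYT4 promoter, chr18:43277441-43277740, minus strand: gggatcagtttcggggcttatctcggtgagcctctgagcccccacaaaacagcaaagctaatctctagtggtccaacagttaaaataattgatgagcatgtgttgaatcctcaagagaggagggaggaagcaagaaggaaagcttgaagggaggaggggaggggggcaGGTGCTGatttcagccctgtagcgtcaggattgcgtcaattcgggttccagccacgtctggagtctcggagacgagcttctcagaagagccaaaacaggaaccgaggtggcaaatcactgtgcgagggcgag
INA promoter, chr10:103276888-103277187, plus strand: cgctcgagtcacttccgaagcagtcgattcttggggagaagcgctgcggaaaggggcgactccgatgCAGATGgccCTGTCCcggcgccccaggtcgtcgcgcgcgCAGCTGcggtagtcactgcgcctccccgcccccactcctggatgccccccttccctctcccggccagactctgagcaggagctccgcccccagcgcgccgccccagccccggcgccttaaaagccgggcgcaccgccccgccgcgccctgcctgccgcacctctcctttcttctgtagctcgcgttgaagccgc
The SYT4 window held CAGCACC on the other strand, as GGTGCTG, starting 82 bases before the gene start, and 7.8% of the 35116 promoters in the table held this motif. The INA window held CAGATG at 183, GGACAG (as CTGTCC) at 174 and CAGCTG at 144 bases before the start, which 14.7%, 20.5% and 17.9% of promoters held. The GC content was 53.3% for SYT4 and 71.3% for INA, beside a median of 58.7%. A match of such short letters is a description of the sequence only.

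Other genes of the same processes were counted in 4 lists (neuronal cytoskeleton, secretory and synaptic vesicle, neuronal RNA binding, growth cone and axonal adhesion) with 73 genes, of which 52 were tested. With miR-10a none was higher and 1 was lower, 1.92% of the lists, where 1.21% of all tested genes passed. Without replicate 2 of the miR-10b doxycycline group, 1 RNA-binding gene was higher and 2 growth cone and adhesion genes were lower with miR-10a. With miR-10b 16 were higher and 4 lower, or 38.5%, where 15.3% of all tested genes passed. Without replicate 2 of the miR-10b doxycycline group 11 were higher and 4 lower, and DESeq2 gave the same numbers, with SYT5 and NRCAM left without an adjusted p. Over the lists the median log2 fold change came to 0.025 for miR-10a and 0.105 for miR-10b. For the difference in response between the vectors 1 of the 52 (MAP2) passed, or 1.92%, which is near the 1.96% of all tested genes.

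Among the cytoskeletal genes, 5 of 15 tested rose with miR-10b and none fell, and 4 rose without replicate 2 of the miR-10b doxycycline group. MAP2, a microtubule-associated protein of dendrites, rose from 357 ± 12.1 to 434 ± 20.9 CPM (SD, n = 3; log2 fold change 0.28, edgeR adjusted p = 2.2e-07), and the tubulins TUBB2A (0.13, edgeR adjusted p = 0.0048) and TUBB2B (0.088, edgeR adjusted p = 0.026) rose less. TUBB2A did not pass without that sample (edgeR adjusted p = 0.052), and TUBB2B did not pass with TMM scaling (edgeR adjusted p = 0.081) or DESeq2 (adjusted p = 0.074). MAP1B, the most abundant gene of the list, did not pass (0.015, edgeR adjusted p = 0.795). NEFH, the heavy neurofilament subunit, is named here after its values were seen. It did not pass with miR-10b (0.18, edgeR adjusted p = 0.108). Between the controls it was lower with the miR-10b vector (-0.46, edgeR adjusted p = 8.1e-06), whereas NEFL and NEFM were higher. Of 18 vesicle genes 7 rose and 2 fell with miR-10b. Without replicate 2 of the miR-10b doxycycline group 4 rose and 2 fell, and in DESeq2 4 rose and 2 fell, with 1 gene left without an adjusted p. VAMP2, the vesicle SNARE, rose from 328 ± 14.1 to 384 ± 21.3 CPM (0.23, edgeR adjusted p = 5.2e-05), as did SYT11, another synaptotagmin (0.16, edgeR adjusted p = 0.012), which did not pass in DESeq2 (adjusted p = 0.054). The other gene that fell beside CPE, a peptide-processing carboxypeptidase (-0.13, edgeR adjusted p = 0.0021), was CHGB, chromogranin B (-0.18, edgeR adjusted p = 0.024), which is named here after its values were seen.

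Of 6 tested neuronal RNA-binding genes, CELF5 (0.32, edgeR adjusted p = 3.1e-05) and SRRM4, a neuronal splicing factor (0.19, edgeR adjusted p = 0.00033), rose with miR-10b. ELAVL2, with 3 transcripts, was the only relative of ELAVL3 in the list that was tested. It had 14.1 ± 1.25 and 12.6 ± 1.05 CPM in miR-10a cells without and with doxycycline. In miR-10b cells it had 15.8 ± 0.339 and 15.1 ± 0.925 CPM. It did not pass with miR-10a or miR-10b (edgeR adjusted p = 0.624 and 0.722). In the list of growth cone and adhesion genes, 2 of 13 rose and 2 fell with miR-10b, and 1 rose and 2 fell without that replicate. CNTN2, an axonal adhesion molecule, fell with both vectors, from 380 ± 7.36 to 346 ± 4.64 CPM with miR-10a (-0.14, edgeR adjusted p = 0.035) and from 466 ± 18.9 to 423 ± 13.3 CPM with miR-10b (-0.14, edgeR adjusted p = 0.0030).

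Upstream regulators were counted the same way. Over all tested genes, 1.21% passed with miR-10a and 15.3% with miR-10b. Of 18 tested neurogenic transcription factors, 1 rose with miR-10a, and 4 rose and 2 fell with miR-10b. Without replicate 2 of the miR-10b doxycycline group 4 rose and none fell with miR-10b, by edgeR. INSM1, a zinc finger factor of newborn neurons and endocrine cells, rose with both vectors, from 185 ± 4.55 to 226 ± 2.74 CPM with miR-10a (0.29, edgeR adjusted p = 4.6e-06) and from 191 ± 9.33 to 242 ± 1.04 CPM with miR-10b (0.34, edgeR adjusted p = 9.1e-09). REST has 2 transcripts and was measured by 31.2 counts on average. It was at 2.43 ± 0.521 and 2.66 ± 0.537 CPM without and with doxycycline in miR-10a cells and at 2.38 ± 0.543 and 2.67 ± 0.397 CPM in miR-10b cells. The log2 fold changes were 0.12 ± 0.22 with miR-10a (SE, edgeR adjusted p = 0.904) and 0.16 ± 0.22 with miR-10b (edgeR adjusted p = 0.694). Neither passed, and these SEs are too wide to show a change of the size seen in NEFM. Of 8 tested genes of the REST complex, 1 rose with miR-10a and 2 with miR-10b. CTDSP2, a phosphatase that acts with REST, rose with both, by 0.13 on the log2 scale each (edgeR adjusted p = 0.023 and 0.0031).

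Genes of progenitors and of dividing cells were counted in the same samples. With miR-10a, 1 of 15 tested progenitor genes fell, and none of 11 tested cell cycle genes passed. With miR-10b, 9 of 15 tested progenitor genes fell and 2 rose, and 5 of 11 tested cell cycle genes fell and 1 rose. Without replicate 2 of the miR-10b doxycycline group these counts were 7 and 2, and 3 and 1. Over all tested genes and all 12 samples, 1.21% passed with miR-10a, and 7.15% were lower and 8.18% higher with miR-10b. The summed level of the 17 progenitor genes was 17700 to 17800 CPM in the miR-10b controls and 16800 to 16900 with doxycycline, and that of the 18 cell cycle genes was 4500 to 4700 and 4190 to 4470 CPM. LIN28A, an RNA-binding protein of immature cells, fell with both vectors (-0.14, edgeR adjusted p = 0.0032, and -0.34, edgeR adjusted p = 4.8e-11). Of the mesenchymal genes, COL1A1 and COL3A1 fell with miR-10b, and the list's sum was 318 to 338 CPM with and 378 to 398 without doxycycline. The part of these cell types in the change of the early neuron genes was not tested.

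**Figure D5:**
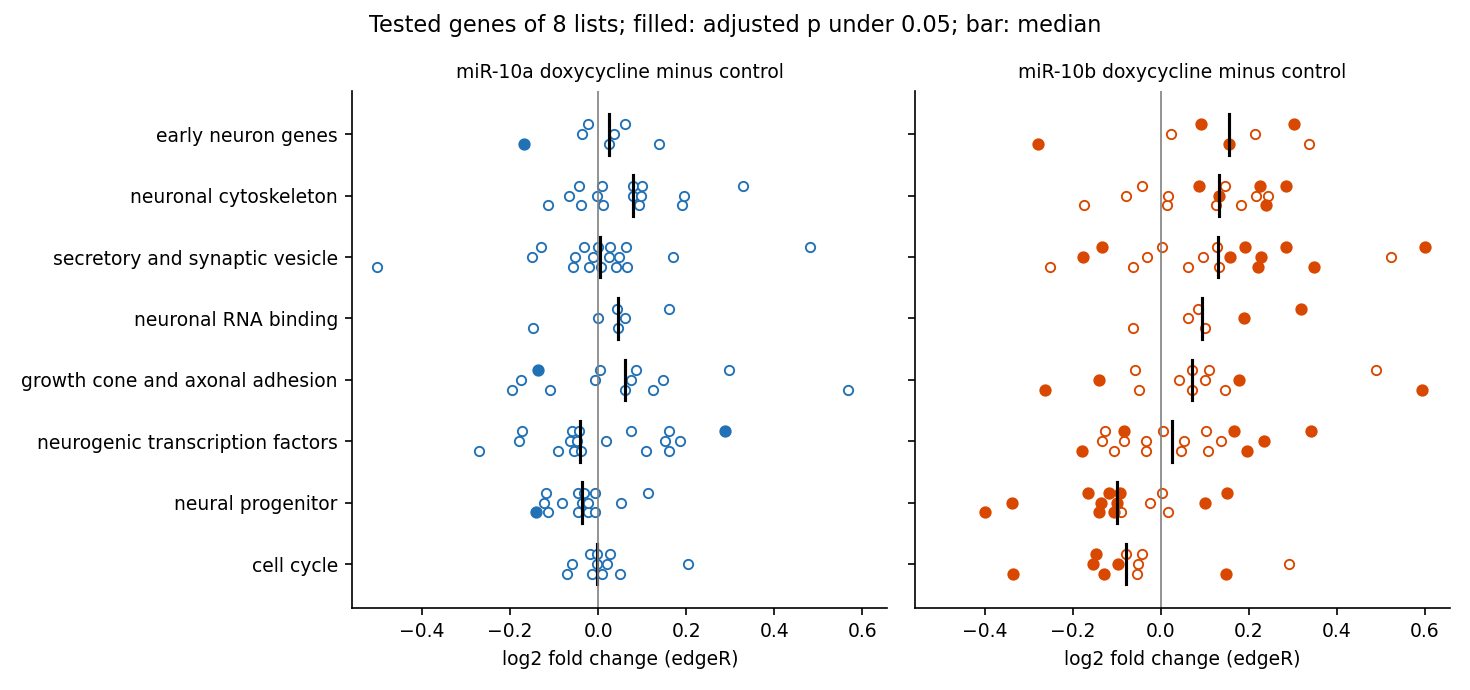
Log2 fold changes (horizontal axes) of the tested genes of 8 lists with miR-10a on the left and miR-10b on the right, where each circle is a gene, filled circles passed the test at an adjusted p under 0.05 and black bars are medians. With miR-10b, 16 of the 52 tested genes of the 4 neuronal lists pass as higher and 4 as lower. Of 15 tested progenitor genes, 9 pass as lower and 2 as higher. Over all tested genes, 8.18% pass as higher and 7.15% as lower.

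The genes whose levels were most like the mean of the measured early neuron genes over the 12 samples were GALR1, PCSK1N, ZAK, SLC17A6, DCC, WDR78, HECW2, WNT5A, SAMD15 and DNALI1. The likeness was Pearson's r between log2(CPM + 1) of a gene and the mean of the 6 members with at least 100 counts, among 6970 genes, and it ran from 0.947 for GALR1 to 0.927 for DNALI1. The 12 points fall into 4 groups that differ in level, and this is a description. SYT4 did not follow this mean: over the 12 samples its r was -0.382 with INA, -0.257 with NEFM and 0.07 with NEFL, whereas NEFL and NEFM had an r of 0.938. The mean profile is therefore mainly that of the other genes. SLC17A6, the vesicular glutamate transporter of midbrain neurons, was at 158 ± 7.56 CPM in the miR-10b controls and 182 ± 4.70 CPM with doxycycline (log2 fold change 0.20, edgeR adjusted p = 0.00049), and at 127 ± 3.68 and 126 ± 4.85 CPM in miR-10a cells.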

How the data were processed

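RNA of the 12 samples was sequenced and the authors deposited a table of read counts per RefSeq transcript for each sample. The submitters' processing notes name STAR, featureCounts of the Subread package and the build hg19, without their roles. The labels and the methods differ in the RNA kit they name. No normalization had been applied to the deposited counts. There were 51799 rows per file, of which 3698 repeated a transcript with equal values and were dropped, leaving 48101. The transcript with the highest mean count stood for its gene, and 92.8% of counts lay on genes with 1 transcript.

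CPM was the count per 1000000 of the sample's total count. The 4 group means were estimated together in edgeR 4.0.16 (R 4.3.3), with library sizes set to the total counts and no replicate block, and contrasts were tested by the quasi-likelihood F-test for genes averaging more than 10 counts. P-values were adjusted by the Benjamini-Hochberg method over all tested genes, and the threshold was an adjusted p of 0.05. The SE of a log2 fold change was its size divided by the square root of F, and intervals used the t distribution with the degrees of freedom of the fit. With 3 samples against 3, an exact permutation test cannot give a two-sided p under 0.1. Floors in CPM cover counting error only. The code was checked on simulated counts with known fold changes. Tables were handled in Python 3.11.15 with pandas 2.3.3 and numpy 2.4.6.

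The members and the 14 other gene lists were chosen with earlier results of these data known. From each list, the text names at most the 4 genes with the highest mean CPM, those called with both vectors, and REST. NEFH, CHGB, LUM, DCN, SLC6A4, SLC32A1 and GAD1 fall outside this rule and were named after their values were seen. Alternatives were TMM factors, DESeq2 1.42.0, no filter, a mean above 50 counts, a replicate block, fitting just the 6 samples compared, summing the transcripts of a gene, and leaving out each sample.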

Additional observations from a re-analysis of the deposited data

Results flagged for a closer look

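The response of 2 of the 7 tested genes differed between the vectors, by a test of the difference itself. Over all tested genes 1.96% passed this test, 0.576% in the direction of these 2. For NEFM the doxycycline effect with miR-10b minus that with miR-10a was 0.279 on the log2 scale (edgeR adjusted p = 0.0016), and all 3 miR-10b doxycycline samples were above their controls while the miR-10a groups overlapped. For NEFL the same difference was 0.178 (edgeR adjusted p = 0.019), again with separate groups for miR-10b and overlapping groups for miR-10a. Groups without overlap were found in 28.7% of all tested genes with miR-10b and in 18.2% with miR-10a. The NEFL call was lost in 5 of 12 fits with a sample left out.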

How the results depend on the processing

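Of 226 log2 fold changes of the tested early neuron genes recomputed under alternatives other than leaving out a sample, 217 kept their direction and side of the threshold and 9 kept their direction but no longer passed. Of 420 with a sample left out, 377 kept both, 29 no longer passed and 14 turned in direction. Members past the threshold numbered 0 to 1 for miR-10a (SYT4 missing without miR-10a control replicate 3), 2 to 4 for the average of both vectors, 1 to 2 for the difference between the effects and 2 to 4 between the controls when 1 sample was left out. For the average, TMM factors gave 2 and DESeq2 gave 2 in place of 4. INA with miR-10b was lost with TMM factors, DESeq2, no filter (edgeR adjusted p = 0.052), the fit of 6 samples (edgeR adjusted p = 0.101) and in 6 of 12 fits with a sample left out (miR-10a doxycycline or control replicate 1, miR-10b doxycycline replicate 1 or 2, miR-10b control replicate 2 or 3), with edgeR adjusted p up to 0.199. Between the controls, NEFM was lost without miR-10a control replicate 3 or miR-10b control replicate 1 or 2 (edgeR adjusted p from 0.052 to 0.063), and SCG2 without miR-10a control replicate 3 (edgeR adjusted p = 0.078). NEFL as a difference between the effects was lost without miR-10a doxycycline replicate 1 or 3, miR-10a control replicate 1 or 2, or miR-10b control replicate 3 (edgeR adjusted p from 0.051 to 0.096). The median of the members was -0.022 for miR-10a and 0.046 between the controls with no filter, which adds genes with few counts, and 0.116 for the difference between the effects with a mean above 50 counts. With a sample left out it ran from -0.017 to 0.033 for miR-10a and from 0.055 to 0.197 for the difference. Directions that turned belonged to differences that had not passed. For STMN2 the range was -0.176 to 0.472 with miR-10a, -0.135 to 0.513 for the difference between the effects and -0.481 to 0.039 between the controls. For TUBB3 it was -0.173 to 0.066 with miR-10a and -0.138 to 0.015 between the controls, and for SCG2 -0.016 to 0.128 with miR-10a and -0.105 to 0.039 for the difference. The cause was not tested for these. Over all genes, 139 passed with miR-10a, 275 with only the 6 samples of the vector and 75 to 268 with a sample left out. For the difference between the effects 224 passed, 343 without a filter and 140 to 339 with a sample left out. Scaling moved the split into higher and lower calls. With miR-10a it was 54 and 85, and 35 and 90 in DESeq2. For the average it was 878 and 712, 665 and 852 with TMM factors and 459 and 740 in DESeq2. For the difference it was 66 and 158, and 23 and 150 in DESeq2.

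Over all genes with a mean above 50 counts, deviations of samples with the same replicate number showed no clear correlation (r from -0.076 to 0.028 over 9 pairs, none above 0.1). Counting error is part of these deviations and lowers r, so a shared culture or batch was not excluded. Among the 7 tested members, NEFM was highest in replicate 2 and SCG2 lowest in replicate 3 of every group. For the others, no replicate was highest or lowest in every group. With a replicate block 1, 4, 4, 2 and 4 members passed with miR-10a, with miR-10b, for the average, for the difference and between the controls, and no member's call changed. Over all genes the block gave 166, 1826, 1680, 274 and 1689. STMN2, GAP43 and ELAVL3 had too few counts to show changes of the size seen in NEFM, and STMN4 had none. Whether depth or the counting of shared reads limited them was not tested.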

Other observations

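Genes of transmitter identity were counted as a further list, with 10 of 16 tested. With miR-10a none passed, and with miR-10b 2 rose and 1 fell, or 1 and 1 without replicate 2 of the miR-10b doxycycline group. Over all tested genes, 15.3% passed with miR-10b in the fit of all samples. SLC18A2, the vesicular monoamine transporter, fell from 16.4 ± 1.05 to 12.5 ± 0.683 CPM with miR-10b (SD, n = 3; log2 fold change -0.39, edgeR adjusted p = 0.0092). The genes that rose were SLC17A6 and SLC6A4, the serotonin transporter, named here after its values were seen. SLC6A4 was at 0.486 ± 0.229 CPM without and 1.10 ± 0.355 CPM with doxycycline (edgeR adjusted p = 0.041), and did not pass without that replicate (edgeR adjusted p = 0.199). Its mean of 10.7 counts was just above the filter. DESeq2 gave it no adjusted p, and it was not tested in the fit of only the 6 samples of the vector. NR4A2 and PITX3, factors of midbrain dopamine neurons, did not pass with either vector (with miR-10b -0.17, edgeR adjusted p = 0.375, and 0.43, edgeR adjusted p = 0.062). With miR-10a PITX3 was at 0.37 on the log2 scale (edgeR adjusted p = 0.363). For the average of both vectors, which uses the same samples, PITX3 and SLC17A6 passed as higher, where 13.9% of tested genes passed. With TMM factors or DESeq2, 1 gene of the list passed as higher for the average. The controls of the vectors differed in the inhibitory genes, which are named here after their values were seen. SLC32A1, the vesicular GABA transporter, was at 7.04 ± 0.532 CPM in the miR-10a controls and 2.15 ± 0.758 CPM in the miR-10b controls (-1.72, edgeR adjusted p = 1.4e-09), and GAD1, which makes GABA, was at 7.21 ± 1.23 and 3.19 ± 0.396 CPM (-1.18, edgeR adjusted p = 4.2e-07). The early neuron genes NEFL, NEFM, SYT4 and SCG2 were higher in the same miR-10b controls.

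Markers of other cells had low counts beside the progenitor genes. NES and VIM, the most abundant progenitor genes, have 1 transcript each. Some of the markers not tested have several transcripts, and for these a low count does not mean low expression. Others have 1 transcript and also had few counts. Of the pluripotent list 1 of 6 genes was tested, DPPA4, which did not pass with doxycycline and was lower in the miR-10b controls than in the miR-10a controls (-0.43, edgeR adjusted p = 1.1e-09). The list summed to 140 to 155 CPM in miR-10a cells and 102 to 112 CPM in miR-10b cells. Of the neural crest and peripheral neuron list 3 of 9 were tested, and POU4F1, a factor of sensory neurons, fell with miR-10b (-0.59, edgeR adjusted p = 0.0054; DESeq2 gave it no adjusted p). Its sum was 21.4 to 26.1 CPM. Of 8 glial genes 4 were tested and none passed with doxycycline (sums of 50.2 to 51.8 CPM in miR-10a cells and 57.6 to 64.6 CPM in miR-10b cells), by edgeR. Of 8 genes of endoderm and surface epithelium 3 were tested, and APOA1, an apolipoprotein, fell with miR-10b (-0.54, edgeR adjusted p = 0.046). The list summed to 7.55 to 11.7 CPM. APOA1 did not pass with only the 6 samples of the vector (edgeR adjusted p = 0.060) or without replicate 2 of the miR-10b doxycycline group (edgeR adjusted p = 0.058), and DESeq2 gave it no adjusted p.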
